A study of Mus musculus with 6 samples.

Results

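The genes that take a cell from G1 into S phase and copy its DNA were followed in embryonic spleens of mice at E13.5. The set holds 48 genes, listed by name, of 18710 genes tested in all. Each was read from the probe sets whose only gene symbol is the gene's own, and where there were several the brightest was used. All 48 passed the filter on low values, a log2 value of at least 4 on at least 3 of the 6 arrays. Total RNA was hybridised to Affymetrix arrays, with 3 Tlx1 heterozygous and 3 Tlx1 homozygous spleen samples. The labels give the zygosity but neither the allele nor the strain, and wild-type spleens were not analysed here, so both groups are taken to carry an altered copy of the homeobox gene Tlx1. The labels do not say whether a replicate was 1 embryo or a pool, so the p-values reflect only how far these samples differ among themselves, and that spread may be technical.

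D cyclins with Cdk4 and Cdk6, then E cyclins with Cdk2, phosphorylate the retinoblastoma family of pocket proteins, which frees the activating E2F factors to switch on the genes of S phase. The origin recognition complex, Cdc6 and Cdt1 load the MCM helicase onto origins in G1, while geminin blocks Cdt1 afterwards. The kinase Cdc7, Mcm10, Cdc45 and the GINS complex then turn the helicase on, and the primase-polymerase alpha complex, the replicative polymerases and the sliding clamp copy the strands. The embryonic spleen is a growing mesenchymal organ, so such genes are active in many of its cells.

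Intensities are given as deposited, on a linear scale, with the mean and SD over 3 arrays per group. Log2 fold changes are homozygous minus heterozygous on the log2(intensity + 1) scale with their standard error (SE). A gene is called at an adjusted p below 0.05 in limma, with Benjamini-Hochberg adjustment over all 18710 genes. Array medians lay at 106.4 to 110.5, and Tlx1 itself was at 750 ± 65.3 in heterozygous and 193 ± 19.9 in homozygous spleens (SD, n = 3). The spleen regulators Nkx2-5 (614 ± 57.4) and Nkx3-2 (555 ± 8.19) gave clear signal in the heterozygous group. Both were called lower in the homozygous group, at 243 ± 52.8 and 236 ± 13.1. The mean log2 level of 3 Y-linked genes was 8.76 and 8.99 on heterozygous arrays 1 and 3 and 8.07 to 8.22 on the other 4. Xist ran the opposite way, at 901 and 812 on the former and 1478 to 1856 on the latter. The higher Y-linked levels occurred only among heterozygous arrays, so a difference in sex make-up would be partly confounded with genotype. Fits that take the Y-linked level into account are given with the alternatives. In whole-organ RNA, fewer cells in cycle and less RNA per cycling cell cannot be told apart.

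Only falls passed among the members. Of 48, 12 were called lower in homozygous spleens (25%), beside 6.56% of all genes tested, and 0 were called higher, beside 10.4%. At an unadjusted p below 0.05, 26 members were lower and 0 higher, beside 2515 lower and 3867 higher of all 18710 genes. Of all genes 17.0% were called in 1 direction or the other. The 12 are the cyclin genes Ccnd1 and Ccne2, the repressor gene E2f7, the pocket protein gene Rb1, the licensing genes Orc1, Cdc6 and Gmnn, the helicase activators Mcm10 and Gins1, the primase-polymerase genes Pola1 and Prim2, and the nuclease gene Fen1. All 12 had groups that did not overlap. Over the whole set 31 members had every homozygous array below every heterozygous array (17.2% of all genes did). The opposite order was found in 2 members, beside 3941 of all 18710 genes. The changes were small, from −0.49 for E2f7 to 0.14 for Cdk6.

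Estimates below 0 were found for 44 of the 48 (46.4% of all genes), with a median of −0.16 beside 0.02 over all genes. This count was 41 after quantile normalization and 40 after cyclic loess. Genes as bright as these leaned lower too. Among the 4150 genes whose mean intensity lay within the middle 50% of the members' (430 to 1357), 8.41% were called lower, 68.8% had an estimate below 0 and the median was −0.05. Of the 24 members in that range 20.8% were called lower, and their median was −0.16.

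**Figure D1:**
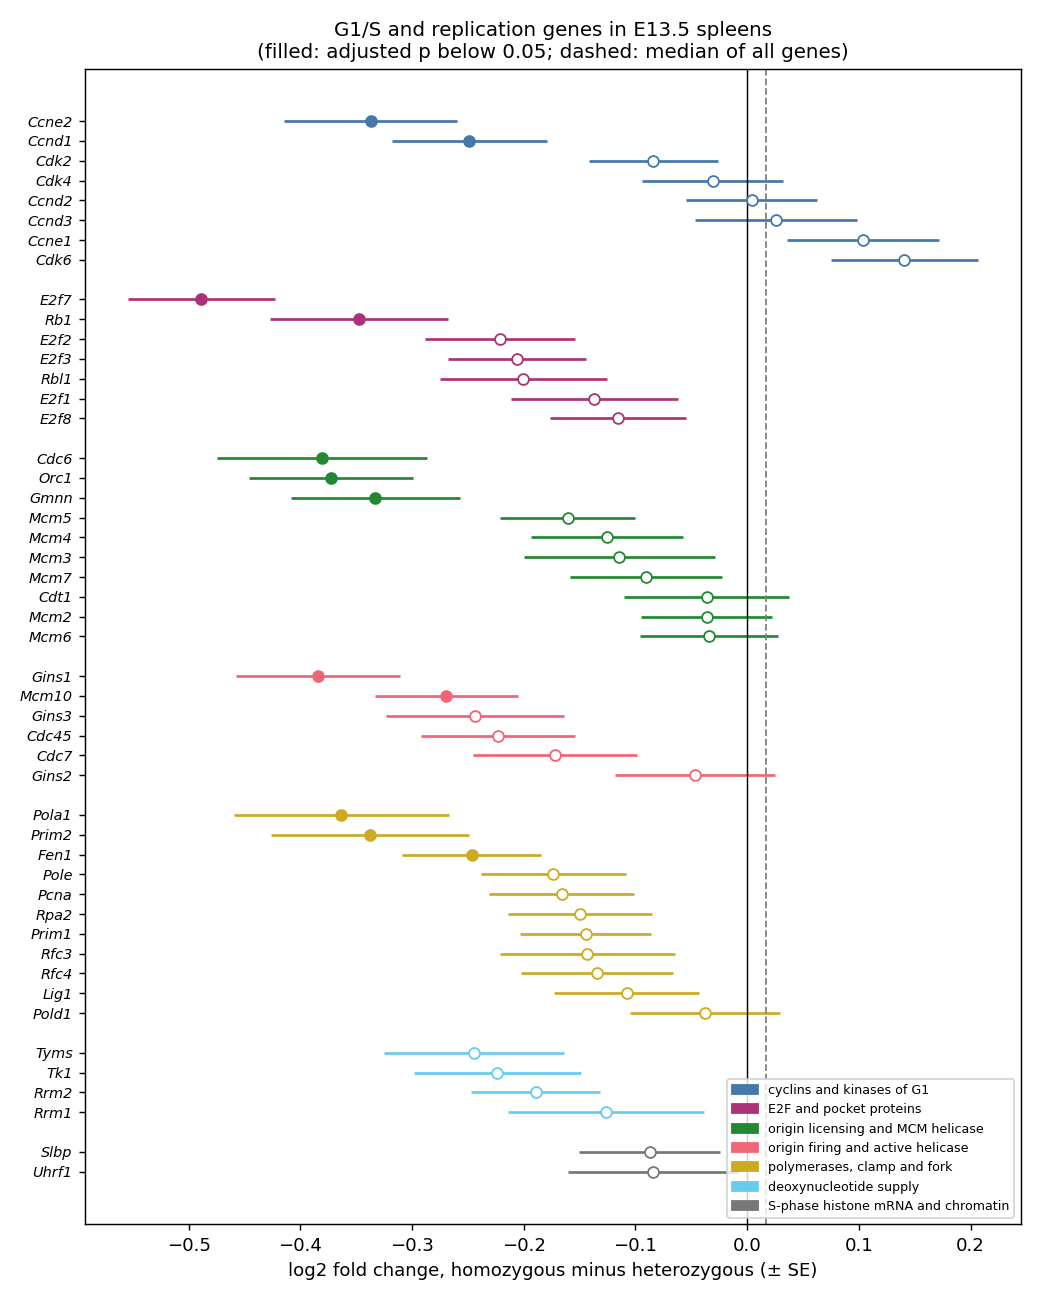
Log2 fold change, homozygous minus heterozygous, of the 48 genes by role (x axis; points with ± SE, 3 arrays per group; filled points are called at an adjusted p below 0.05). Filled points occur in 5 of the 7 role groups and all lie below 0, and the cyclins and kinases of G1 hold the 4 estimates above 0; the dashed line is the median of all genes (0.02).

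E2F factors bind their sites in the promoters of many of these genes, and the data hold groups of members that lay lower together. The E2F motif was searched as TTTCCCGC, TTTCGCGC, TTTGCCGC or TTTGGCGC on both strands, from 250 bases before to 50 after each start site, in RefSeq promoters of the build GRCm38.p6. Entries were found for 38 of the 48 members, in 47 windows. A match lay in 18 of these windows (38.3%), beside 744 of all 32851 windows (2.26%) and 3.12% of the windows of genes tested. Matches were held by 4 of the 6 called members with an entry (E2f7, Orc1, Cdc6 and Pola1) and by 14 of the 32 members that were not called. The stretches around the matches of the 4 called genes are shown because these genes fell, and that of Mcm6 because it has the most matches of any member and a fold change near 0. Each is written 5′ to 3′ on the strand of its gene, upstream of the start site of its promoter entry, with the match in capitals. For Orc1, Cdc6 and Pola1 the stretch lies inside the span of the gene. Those spans begin at 108575705 and 98907709 and, for Pola1 on the minus strand, at 93632387.

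E2f7, chr10:110745215-110745274, plus strand: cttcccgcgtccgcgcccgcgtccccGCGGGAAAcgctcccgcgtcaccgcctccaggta
Orc1, chr4:108579401-108579453, plus strand: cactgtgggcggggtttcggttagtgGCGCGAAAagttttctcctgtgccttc
Cdc6, chr11:98907987-98908046, plus strand: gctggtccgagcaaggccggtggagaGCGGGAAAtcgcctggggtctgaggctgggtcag
Pola1, chrX:93632260-93632319, minus strand: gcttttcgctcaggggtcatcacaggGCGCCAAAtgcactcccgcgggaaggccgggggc
Mcm6, chr1:128359719-128359841, minus strand: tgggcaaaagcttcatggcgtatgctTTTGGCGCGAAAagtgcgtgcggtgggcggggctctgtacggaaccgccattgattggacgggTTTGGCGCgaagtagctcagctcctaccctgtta

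In Mcm6, 2 of the 3 matches overlap on opposite strands and share one run of capitals. In the called genes the match lay at −198 to −191 (E2f7), −27 to −20 (Orc1), −138 to −131 (Cdc6) and −138 to −131 (Pola1), counted from the start site. The 18 members with a match had a median log2 fold change of −0.15 and the 20 without one −0.14. Outside the members, 8.27% of the 520 genes with a match were called lower and 4.04% higher, against 6.31% and 10% of the 14115 without. Over all genes tested, the median intensity was 382 with a match and 187 without, and the median GC content of the window 63.2% and 59%. Another motif was a CCAAT box, CCAAT, in 27 of the members' 47 windows (57.4%). It stood in 37.4% of all windows and 37.2% of the windows of genes tested. A CHR, TTTGAA, was in 9 of the 47 (19.1%), beside 17.9% of all windows and 13.8% of those of genes tested. In windows of the mitosis and spindle genes the CHR stood in 75% and the E2F motif in 7.5%. These matches describe the letters of the windows and show no binding.

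**Figure D2:**
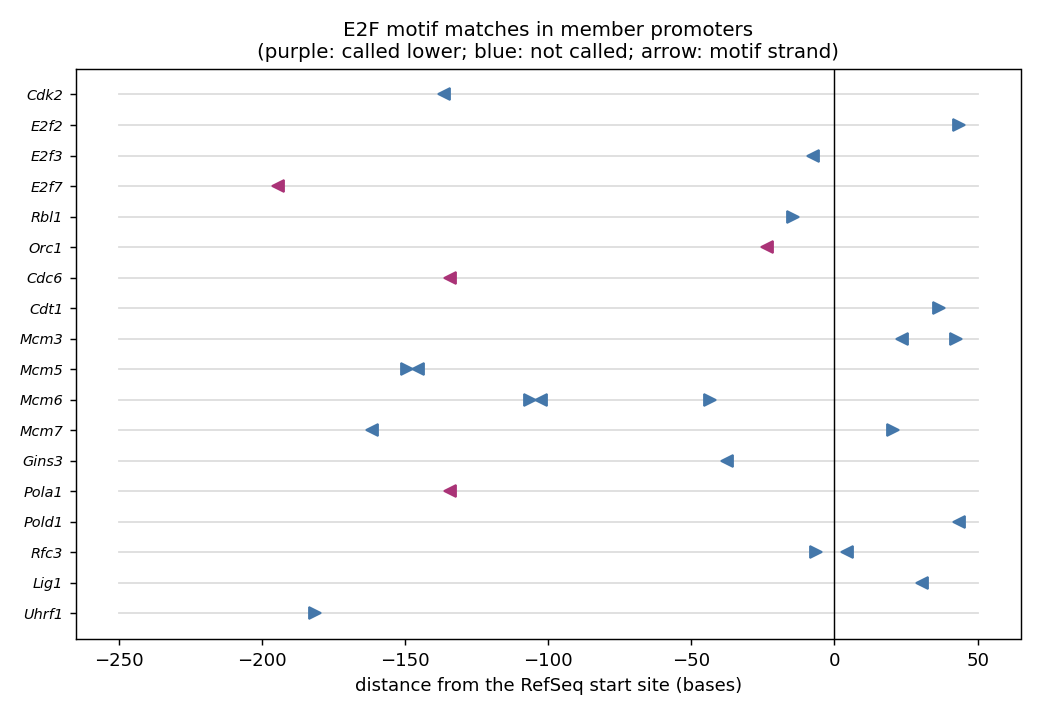
Position of E2F motif matches in the promoters of the 18 members that have one, as distance in bases from the RefSeq start site (x axis); arrowheads give the motif strand. Called members (purple) and members that were not called (blue) both hold matches, and Mcm6 has 3.

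Among cyclins and kinases of G1, 2 of 8 fell and the others lay near 0 or above. Ccnd1, the D cyclin most tied to growth factor signals, read 1276, 1173 and 1163 on the heterozygous arrays and 1044, 951 and 1044 on the homozygous ones. The groups were 1204 ± 62.5 and 1013 ± 53.3 (SD, n = 3), or −0.25 ± 0.07 on the log2 scale (adjusted p = 0.0429). Every homozygous array was below every heterozygous one, but none of the 6 refits without 1 array kept the call. Ccnd2, another D cyclin gene, read 5289, 5228 and 5356 against 5264, 5171 and 5486. Its log2 fold change was 0.00 with a 95% interval of −0.13 to 0.14. Ccnd3, the last of the D cyclin genes, read 1027, 937 and 1057 against 1001, 984 and 1089.9, at 0.03 (95% interval −0.14 to 0.19). Both signs turned under some alternatives. The change of Ccnd1 exceeded that of Ccnd2 by 0.25 and that of Ccnd3 by 0.28, with no overlap in either pair. Both pairs were chosen after their values were seen.

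Ccne2 and Ccne1 encode the E cyclins, which activate Cdk2 at the start of S phase. Ccne2 read 351, 361 and 368 in heterozygous and 256, 300.1 and 301 in homozygous spleens, lowest on homozygous array 1. It fell by 0.34 on the log2 scale (SE 0.08, adjusted p = 0.0228). Ccne1 read 1036, 1131 and 1134 against 1157, 1142 and 1248, a log2 fold change of 0.10 ± 0.07 (adjusted p = 0.32). Its homozygous arrays were all higher. The difference in log2 value between Ccne2 and Ccne1 within an array changed by −0.44, with no overlap of the groups. In an exact two-sided permutation test over the 6 arrays this gave p = 0.1, the smallest that 3 against 3 arrays allow. In all, 6 such pairs were set against each other, among them the D cyclin pairs above, all chosen after their values were seen. Each gave an exact p = 0.1, also after adjustment over the 6 pairs.

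The kinase genes did not pass. Cdk4 was at −0.03 ± 0.06 and Cdk2, the partner of the E cyclins, at −0.08 ± 0.06. Cdk6, which pairs with D cyclins, read 516, 535 and 581 against 601, 591 and 606. That made it the highest estimate of the 48 (0.14 ± 0.07, adjusted p = 0.17), with groups that did not overlap.

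All 7 E2F and pocket protein genes had estimates below 0, and 2 fell. Of all genes 46.4% had an estimate below 0 and 6.56% were called lower. E2f7 encodes an atypical E2F that represses S-phase genes late in the cycle and is itself an E2F target. It read 469, 457 and 483 in heterozygous and 357, 323 and 324 in homozygous spleens. This was the largest change of the set, −0.49 ± 0.07 on the log2 scale with an adjusted p of 0.00295. The groups did not overlap. E2f7 was the 1 member called under every alternative run except the fit on 4 arrays described below, at −0.54 to −0.42. Its closest relative E2f8 read 537, 531 and 527 against 475, 516 and 483, at −0.12 ± 0.06 (adjusted p = 0.216). The change of E2f7 exceeded that of E2f8 by 0.37, in a pair chosen after its values were seen (exact permutation p = 0.1, the smallest possible).

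Rb1, which encodes the retinoblastoma protein, a brake on E2F activity, read 223, 233 and 245 against 170.0, 203 and 178. It fell by 0.35 on the log2 scale (SE 0.08, adjusted p = 0.0229), so an inhibitor of the transition is among the falls. The related Rbl1, encoding p107, read 713, 718 and 769 against 617, 698 and 603 (−0.20 ± 0.08, adjusted p = 0.0989).

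The activator genes E2f2 and E2f3 lay just outside the threshold, both with groups that did not overlap. E2f2 read 125, 139.7 and 139.4 against 117, 117 and 112 (−0.22 ± 0.07, adjusted p = 0.0541). E2f3 read 722, 729 and 733 against 666, 609.8 and 619 (−0.21 ± 0.06, adjusted p = 0.0522). Another probe set of E2f3 read 446, 482 and 482 against 374, 387 and 387, and as a row of its own it was called (−0.29, adjusted p = 0.017). E2f1 read 409, 403 and 354 against 362, 338 and 359, at −0.14 ± 0.07 (adjusted p = 0.23), and its groups overlapped.

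Genes of origin licensing were lower in part. Orc1, the largest subunit of the origin recognition complex, read 125, 122 and 110.2 against 91.0, 97.0 and 87.5, and fell by 0.37 on the log2 scale (SE 0.07, adjusted p = 0.0135). Cdc6, the loading factor, read 455, 499 and 505 against 370, 423 and 332 (486 ± 27.3 and 375 ± 45.9, SD, n = 3). It fell by 0.38 (SE 0.09, adjusted p = 0.0284), with homozygous array 2 nearest to the heterozygous group. Gmnn encodes geminin, the inhibitor of Cdt1. It read 141, 126 and 120.0 against 103, 98.0 and 106, and fell by 0.33 (SE 0.08, adjusted p = 0.022). Cdt1, the target of geminin, did not pass (−0.04 ± 0.07, 95% interval −0.21 to 0.13), and its sign turned after quantile normalization and cyclic loess.

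The 6 subunit genes of the MCM2-7 helicase ring were not called. Their estimates ran from −0.16 ± 0.06 for Mcm5 (adjusted p = 0.0989) through Mcm4 (−0.13), Mcm3 (−0.11) and Mcm7 (−0.09) to Mcm2 (−0.04) and Mcm6 (−0.03). Mcm2 turned sign after cyclic loess (0.00). Mcm5 read 1194, 1107 and 1129 against 1008, 1034 and 1025 with no overlap. Mcm3 read 1455, 1393 and 1493 against 1325, 1496 and 1203, and Mcm6 read 2385, 2342 and 2366 against 2255, 2439 and 2238. In both the homozygous array 2 lay above every heterozygous array, and the other homozygous arrays lay below them. For Mcm6 the 95% interval was −0.18 to 0.11. The change of Orc1 exceeded that of Mcm6 by 0.34, with groups that did not overlap. This pair was chosen after its values were seen, and its exact permutation p = 0.1 is the smallest possible.

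Of the 6 genes that fire origins and activate the helicase, 2 fell. Gins1, a subunit of the 4-part GINS complex, read 929, 888 and 834 against 638, 668 and 726 (884 ± 47.3 and 677 ± 44.8, SD, n = 3). It fell by 0.38 on the log2 scale (SE 0.07, adjusted p = 0.0118), and its call was lost in 1 refit, that without homozygous replicate 1. Mcm10, a scaffold of the starting fork, read 480, 456 and 473 against 370, 409 and 389, and fell by 0.27 (SE 0.06, adjusted p = 0.0254). Its call was kept in 1 of the 6 refits without 1 array, and lost after quantile normalization or cyclic loess.

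The other GINS subunits differed in size of change. Gins3 read 319, 364 and 378 against 313, 284 and 298 (−0.24 ± 0.08, adjusted p = 0.0684), with separate groups. Gins2 read 527, 530 and 492 against 515, 462 and 524 (−0.05 ± 0.07), with groups that overlapped. Gins2 turned sign after quantile normalization (0.01) and cyclic loess (0.01). Between Gins1 and Gins2 the change differed by 0.34, in a pair chosen after its values were seen (exact permutation p = 0.1, the smallest possible). The helicase cofactor gene Cdc45 (−0.22 ± 0.07, adjusted p = 0.0572) and the kinase gene Cdc7 (−0.17 ± 0.07, adjusted p = 0.136) did not pass, though neither had overlapping groups.

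At the fork, 3 of 11 genes fell. Pola1 encodes the catalytic subunit of polymerase alpha, which starts each new strand. It read 513, 518 and 550 against 398, 474 and 364 (527 ± 19.9 and 412 ± 56.3, SD, n = 3) and fell by 0.36 on the log2 scale (SE 0.10, adjusted p = 0.0361). Pola1 is the 1 member on chromosome X. Adding the Y-linked level to the fit gave −0.33 (adjusted p = 0.161). Prim2, the large primase subunit in the same complex, read 450, 440 and 476 against 347, 410.1 and 329. It fell by 0.34 (SE 0.09, adjusted p = 0.0349). For both genes homozygous array 2 was nearest to the heterozygous arrays, and among refits without 1 array both calls held only in that without it (−0.47 for Pola1 and −0.43 for Prim2). The small primase subunit gene Prim1 read 1359, 1421 and 1376 against 1241, 1232 and 1286 (−0.14 ± 0.06, adjusted p = 0.121), with separate groups.

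Fen1, the nuclease that trims Okazaki fragments, read 555, 568 and 593 against 501, 480 and 465. It fell by 0.25 on the log2 scale (SE 0.06, adjusted p = 0.0306), and none of the 6 refits without 1 array kept this call. The ligase gene Lig1, which seals the same fragments, stood at −0.11 ± 0.06. The polymerase genes Pole (−0.17 ± 0.06, adjusted p = 0.099) and Pold1 (−0.04 ± 0.07) did not pass, and Pold1 turned sign after quantile normalization (0.04) and cyclic loess (0.01). The clamp gene Pcna was at −0.17 ± 0.06 (adjusted p = 0.111), with separate groups at 3572 ± 104 and 3186 ± 162 (SD, n = 3). Its other probe set ran nearly in parallel (−0.16). The clamp loader genes Rfc3 (−0.14) and Rfc4 (−0.13) and Rpa2 (−0.15), a subunit of the single-strand binding protein, did not pass either.

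None of the 4 genes of deoxynucleotide supply was called. All were estimated lower, beside 46.4% of all genes and 68.8% of genes in the members' middle 50% of mean intensity. Tyms, encoding thymidylate synthase, read 837, 876 and 825 against 656, 696 and 796 (−0.24 ± 0.08, adjusted p = 0.0704). Rrm2, the S-phase subunit of ribonucleotide reductase, read 1423, 1499 and 1464 against 1268, 1286 and 1292 (−0.19 ± 0.06, adjusted p = 0.055), and the partner subunit gene Rrm1 was at −0.13 ± 0.09. In Tyms and Rrm2 the groups did not overlap. Tk1, thymidine kinase, was at −0.22 ± 0.07 (adjusted p = 0.0719), and at −0.13 in another probe set. Slbp, which binds histone mRNA, was at −0.09 ± 0.06, but its other probe set gave 0.01. Whether copies of Pcna, Tk1 or Slbp elsewhere in the genome add to a probe set was not tested. The chromatin gene Uhrf1 stood at −0.08 ± 0.08.

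**Figure D3:**
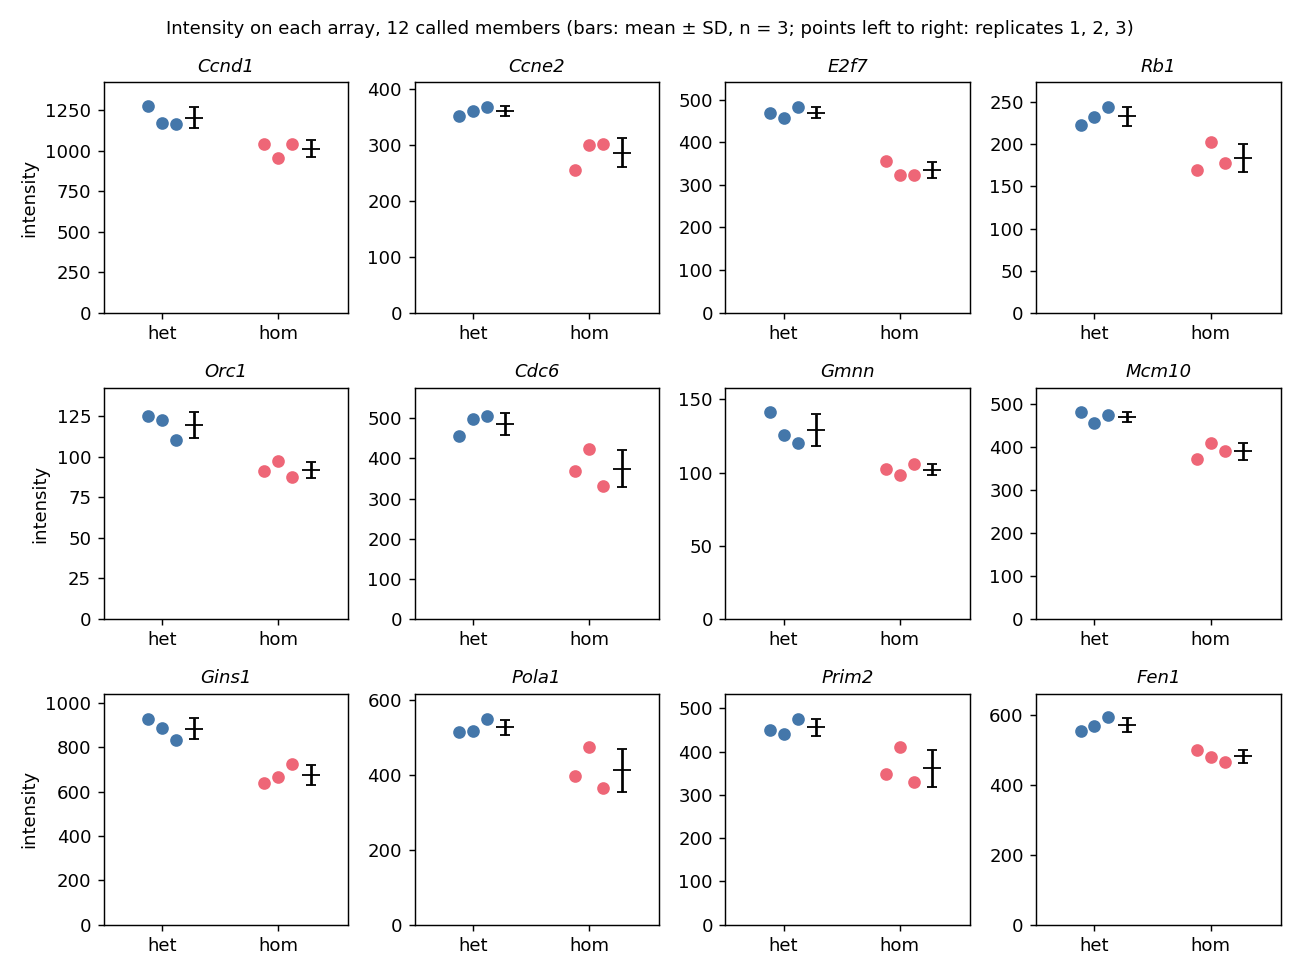
Intensity (y axis, from 0) of the 12 called genes on each array, heterozygous in blue and homozygous in red, with mean ± SD (n = 3) to the right of the points. No homozygous point reaches a heterozygous one in these genes; in Cdc6, Pola1 and Prim2 homozygous array 2 is the highest of its group.

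Of the members that were not called, 10 had an adjusted p below 0.1. The share of all genes at this threshold is not given here, so the count has no background. These are E2f2, E2f3, Rbl1, Mcm5, Cdc45, Gins3, Pole, Rrm2, Tyms and Tk1. All 10 were estimated lower, as were 44 of the 48 members and 46.4% of all genes. With a variance trend 22 members were called lower (8.91% of all genes), and 7 after quantile normalization (4.69%). After cyclic loess there were 8 (5.87%). Adding the Y-linked level to the fit left 3 (2.71%), namely E2f7, Orc1 and Gins1. Without heterozygous replicate 1, 2 or 3 the count was 6, 2 and 5, and without homozygous replicate 1, 2 or 3 it was 1, 11 and 6. The share of all genes called lower in these refits was 3.44%, 2.97%, 4.46%, 2.67%, 6.65% and 4.46%. Ccne2 kept its call only without homozygous replicate 2 or 3, and Rb1 and Cdc6 only without heterozygous replicate 1 or homozygous replicate 2. Gmnn kept it without heterozygous replicate 3 or homozygous replicate 2 or 3. Orc1 lost it without heterozygous replicate 2 or homozygous replicate 1. On the 4 arrays with a low Y-linked level, heterozygous replicate 2 against the 3 homozygous arrays, 0 members were called (1.43% of all genes lower) and the median was −0.18. The lone heterozygous array is assumed there to vary like the homozygous ones, from which the spread is taken, so the loss of calls says little. E2f7 (−0.45), Orc1 (−0.41) and Gins1 (−0.39), called with the Y-linked level in the fit, stayed close to their estimates on all 6 arrays. Cdt1 (0.033) and Pold1 (0.029) turned sign. The 4 arrays are part of the 6, so closeness is in part built in.

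**Figure D4:**
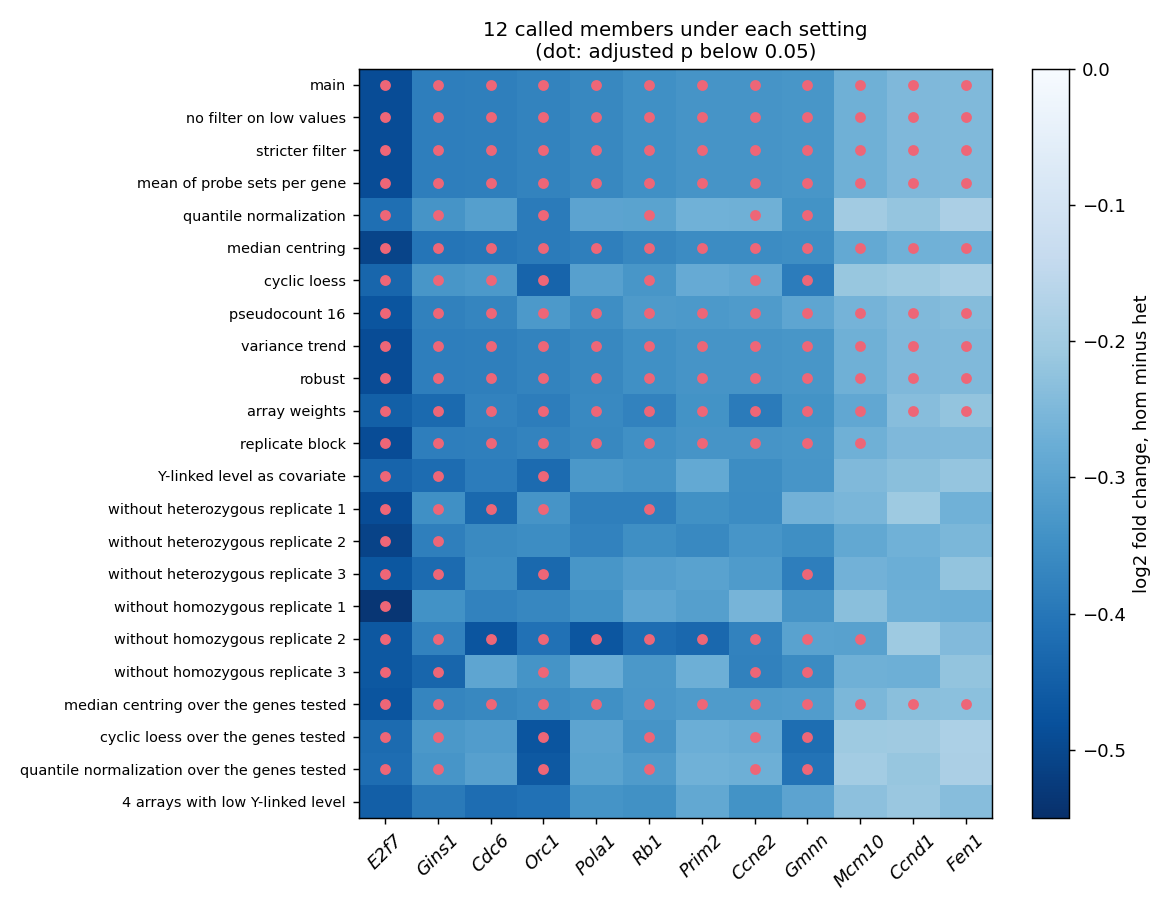
Log2 fold change (colour) of the 12 called genes (columns) in the reported fit and under each alternative (rows); a dot marks an adjusted p below 0.05. Estimates stay below 0 in every cell, while dots drop out most for Ccnd1, Fen1, Pola1, Prim2 and Mcm10; E2f7 lacks a dot only in the fit on 4 arrays.

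Other genes of the pathway, 69 of 72 measured, lay the same way. Of these, 11 fell, 0 rose and 62 had estimates below 0, with a median of −0.14. Over all genes tested 6.56% were called lower, 10.4% were called higher and 46.4% had an estimate below 0. Among genes in the members' middle 50% of mean intensity 8.41% were called lower and 68.8% had an estimate below 0. In replication 9 of 39 fell, led by Dbf4, the activating subunit of the Cdc7 kinase, from 588 ± 27.2 to 448 ± 18.5 (SD, n = 3; log2 fold change −0.39 ± 0.07, adjusted p = 0.00733). The checkpoint mediator gene Clspn fell by 0.35, Dscc1 of the alternative clamp loader by 0.35 and the helicase gene Mcm8 by 0.34. Among 16 other G1/S regulators 1 fell, the E2F partner gene Tfdp2 (−0.24). Of 14 measured genes of nucleotide supply and S-phase chromatin 1 fell, the histone chaperone gene Nasp (−0.25). In this list and in the G1/S regulators the share called lower was near the 6.56% of all genes.

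Mitosis and spindle genes, the set most like this one, were lower more often. Of 45 measured, 25 fell and all 45 estimates were below 0, beside 6.56% and 46.4% of all genes. Their median was −0.26, beside −0.16 for the G1/S and replication genes. The largest were Kif11 (−0.42), Kif4 (−0.41), Nek2 (−0.40) and Spag5 (−0.37). The difference between the 2 sets was not tested. Among 7 measured CDK inhibitor genes, which restrain the G1 kinases, Cdkn1c, encoding p57, rose from 6414 ± 544 to 8923 ± 553 (SD, n = 3), or by 0.48 ± 0.08 on the log2 scale (adjusted p = 0.00751). Cdkn1b, encoding p27, fell by 0.23 (adjusted p = 0.0374).

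**Figure D5:**
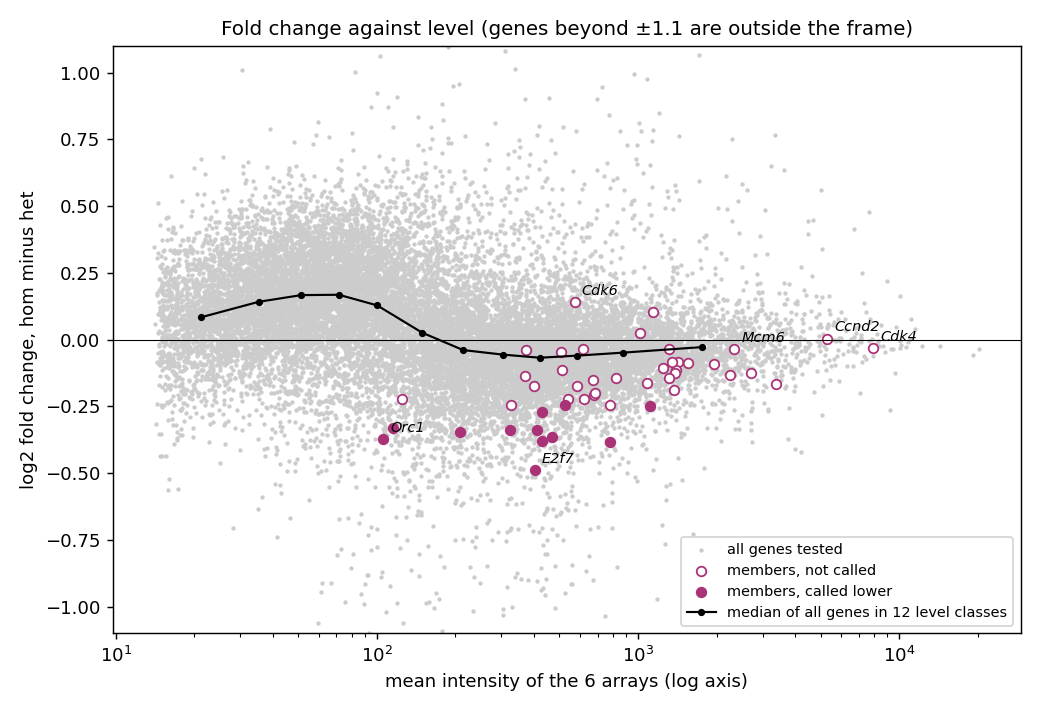
Log2 fold change (y axis) against mean intensity of the 6 arrays (x axis, log scale) for all 18710 genes (grey), the 36 members not called (open) and the 12 called lower (filled); the line joins medians of all genes in 12 classes of level. Dim genes lay above 0 and bright ones slightly below, and most members lie under the line.

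Markers of several cell types moved in the same samples. Over all genes tested, 6.56% were called lower and 10.4% higher. Of 12 measured erythroid markers, which mark dividing red cell precursors among others, 6 fell and 0 rose. Their summed intensity was 12103 to 13349 on heterozygous and 9649 to 10474 on homozygous arrays. Most of that sum was 1 gene, Hbb-y (9773 to 10426 against 8032 to 8627), which fell by 0.26 on the log2 scale. Of 16 endothelium markers 12 fell and 0 rose, with sums of 10658 to 10980 against 7786 to 8372. Markers of megakaryocytes and platelets fell in 3 of 6 and rose in 0 (sums 1051 to 1296 against 607 to 839). Within these sums Ppbp alone was at 458 to 626 against 106 to 255. Epithelium markers rose in 3 of 12, pancreas markers in 3 of 10 and enteric neuron and glia markers in 5 of 8, with none lower. Their sums were 2865 to 3566 against 3717 to 4073, 1431 to 1989 against 2997 to 6360, and 1375 to 1468 against 1993 to 2124. Most of the pancreas sum came from Gcg and Cpa1. Gcg read 98.0 to 1032 against 761 to 3751 and was not called, and Cpa1 read 307 to 861 against 1600 to 1783. Of 11 measured markers of spleen and splanchnic mesenchyme, Tlx1 among them, 6 fell and 2 rose (19137 to 19838 against 18192 to 18734). Macrophage markers passed in 0 of 13 and liver markers in 0 of 7, with sums that overlapped (3485 to 3577 against 3522 to 3852, and 1271 to 1959 against 1043 to 2211). No measured marker was listed at 0 on any array, and the lowest value was 30.2 for Ptf1a of the pancreas list. The part of these cell types in the lower level of G1/S and replication genes was not tested.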

How the data were processed

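Per the submitters' processing notes, the authors used GCRMA, a method that subtracts background estimated from probe sequence, normalizes between arrays and summarises probes into a probe set. The deposited values are linear intensities, so log2(intensity + 1) was taken. Neither the GCRMA version nor a genome build is given in the sources used here. Of 35512 probe sets, 21789 had 1 gene symbol in the platform's annotation, 1621 several and 12102 none in the table used. All 6 arrays entered 1 two-sided comparison without covariates in limma (version 3.58.1, R 4.3.3), through lmFit and eBayes, steps that were tested on simulated data. The members, gene lists and tests were chosen with earlier results of these data known. The rule names all 48 members, gives arrays for called members and their families, and names up to 4 called genes of each further list. The number of arrays limits precision. Replicate numbers recur in both groups, and the closing section gives the check of pairing. Alternatives were other filters, probe sets, scalings, pseudocount, variance models, weights, a block, a covariate and refits without 1 array. No protein sequence was used here.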

Additional observations from a re-analysis of the deposited data

How the results depend on the processing

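Of 3178 genes called, 1951 (61.4%) were higher; this share was 48.3% after cyclic loess over the genes tested, 50.4% after quantile normalization over them, 69.2% when the Y-linked level entered as covariate and 52.5% with the stricter filter. The count was 1647 with that covariate, 853 on the 4 arrays with a low Y-linked level, and 1198 to 3563 without 1 array. Members called lower, 12 as reported, beside 6.56% of all genes, were 19 (10.6%) with the stricter filter (log2 of at least 6), 19 (7.93%) with a pseudocount of 16, 22 (8.91%) with a variance trend, 7 (4.69%) after quantile normalization, 3 (2.71%) with the covariate and 0 (1.43%) on the 4 arrays, where 1 group has 1 array. They were 7 after cyclic loess (6.24%) or quantile normalization (5.91%) over the genes tested. They were 1 (2.67%) to 11 (6.65%) without 1 array, and fewer samples enter those fits. Members called higher were 0 under every alternative run. The members' median, −0.16, was −0.12 after quantile normalization, −0.17 after median centring, −0.11 after cyclic loess, −0.18 with the covariate, −0.14, −0.11 and −0.12 after median centring, cyclic loess and quantile normalization over the genes tested, −0.18 on the 4 arrays and −0.18 to −0.15 without 1 array. The cause was not tested. Fits over the genes tested or on the 4 arrays were chosen after seeing the data.

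Estimates near 0 turned sign. Ccnd2 was at −0.014 after median centring, −0.0076 after cyclic loess over the genes tested and −0.020 to 0.022 without 1 array, and Ccnd3 ran from −0.025 to 0.062 there. Cdt1 was at 0.028 after quantile normalization, 0.019 after cyclic loess, 0.0048 with the covariate, 0.025 and 0.029 after cyclic loess and quantile normalization over the genes tested, 0.033 on the 4 arrays and −0.090 to 0.018 without 1 array. Mcm2 was at 0.0045 after cyclic loess and 0.0034 after cyclic loess over the genes tested. Gins2 was at 0.015 after either quantile normalization, 0.0096 and 0.018 after cyclic loess and −0.081 to 0.0094 without 1 array. Pold1 was at 0.036 and 0.037 after quantile normalization, 0.014 and 0.024 after cyclic loess, 0.029 on the 4 arrays and −0.071 to 0.017 without 1 array. Slbp was at 0.012 in its other probe set.

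With the replicate number as a block 10 members were called lower, beside 5.73% of all genes, and 3163 genes were called in either direction. Deviations of same-numbered arrays correlated at −0.01, 0.04 and −0.11, beside −0.09 to 0.10 for arrays of unlike number. These values show no pairing by number, but with 3 arrays per group they cannot exclude one.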

Other observations

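Homozygous array 2 was the brightest of the 3 homozygous arrays in 20 of the 48 members (41.7%) and in 6 of the 12 called ones, namely Cdc6, Pola1, Prim2, Rb1, Orc1 and Mcm10. It was the brightest in 28 of the 45 mitosis and spindle genes (62.2%), in 43.9% of all genes called lower and in 28.3% of all genes tested. These counts were made after the values of single members had been seen. Among the homozygous arrays, array 2 also had the highest summed intensity of erythroid markers (10474, against 9649 and 10317). Its sum of spleen mesenchyme markers was highest too (18734, against 18192 and 18699). Those mesenchyme markers did not all run that way. Col3a1 read 3472 on array 2, against 3069 and 2983, but Nkx2-5 read 182, against 268 and 278. Their median log2 difference from the heterozygous mean was highest on homozygous array 3 (−0.17, against −0.24 and −0.22). Array 2 had the lowest sum of liver markers (1043, against 2201 and 2211) and megakaryocyte markers (607, against 712 and 839). The same held for epithelium markers (3717, against 3884 and 4073) and pancreas markers (2997, against 5022 and 6360). Most of the gap in the pancreas sum was 1 gene, Gcg (761, against 3751 and 2728), while Cpa1 was at 1609.7, against 1783 and 1600.4. Whether these values are related to the members was not tested.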
